A study of Mus musculus with 8 samples.

Results

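The cytochrome P450 family 4 fatty acid ω-hydroxylases were followed in mouse liver tumours and in the liver beside them. The genes were chosen by symbol, and 10 of the 34745 rows of the deposited gene table carried one of the chosen symbols: Cyp4a10, Cyp4a12a, Cyp4a12b, Cyp4a14, Cyp4a31, Cyp4a32, Cyp4f13, Cyp4f14, Cyp4f15 and Cyp4v3. All 10 passed the filter on low counts and were tested. RNA was sequenced from age-matched male mice given the liver carcinogen diethylnitrosamine (DEN), 8 months after it. The tumours of 2 mice with the pT3-mA3 plasmid (mA3 tumour 1 and 2) and of 2 mice with the pT3-vector plasmid (vector tumour 1 and 9) were set beside relatively normal liver of the same numbered mice (mA3 adjacent 1 and 2, vector adjacent 1 and 9). All 8 libraries, those of the vector mice included, came from animals given both DEN and a plasmid, so no liver without either was compared. The design text speaks of APOBEC3B overexpression and the titles of mA3; the labels do not say how the plasmid was given or which liver cells held it, nor the strain of the mice. Apart from their numbers nothing in the labels describes the mice as separate animals, and the p-values measure the spread between these samples.

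Cytochrome P450 family 4 enzymes are haem proteins of the endoplasmic reticulum that add a hydroxyl group to the far (ω) end of a fatty acid. Alcohol and aldehyde dehydrogenases turn the product into a dicarboxylic acid, which peroxisomes then shorten; in liver this path runs beside mitochondrial β-oxidation and is known to gain weight in fasting. Cyp4a enzymes act mainly on medium- and long-chain fatty acids and on arachidonic acid, whose ω-hydroxylated product is the lipid mediator 20-HETE. Cyp4f enzymes act on long-chain fatty acids, on leukotriene B4 and, in human, on vitamins E and K. The nuclear receptor PPARα is a classic inducer of Cyp4a10 and Cyp4a14, and Cyp4a12a is known as a male-predominant gene of mouse liver and kidney.

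The 6 Cyp4a genes lay in 1 cluster on chromosome 4 (positions as deposited, which match build GRCm38). In order they were Cyp4a12a (chr4:115299046-115332815), Cyp4a12b (chr4:115411624-115439034), Cyp4a14 (chr4:115486200-115496142, minus strand), Cyp4a10 (chr4:115518264-115533649), Cyp4a31 (chr4:115563649-115579015) and Cyp4a32 (chr4:115600969-115621602). The 3 Cyp4f genes lay on chromosome 17: Cyp4f15 (chr17:32685627-32703352), and on the minus strand Cyp4f14 (chr17:32905071-32917342) and Cyp4f13 (chr17:32924688-32947402). Cyp4v3 lay on the minus strand of chromosome 8 (chr8:45269671-45333216). All 10 were annotated as protein coding.

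How far each count belongs to its own gene depends on how alike the copies are. Coding sequences were 98.5% identical between Cyp4a12a and Cyp4a12b, 96.6% between Cyp4a10 and Cyp4a31, 97.2% between Cyp4a10 and Cyp4a32 and 96.0% between Cyp4a31 and Cyp4a32. Of all 100-base windows in the transcript, 35.8% of those in Cyp4a12a and 36.2% of those in Cyp4a12b occurred unchanged in the other copy. The share found in some other gene was 12.7% for Cyp4a10, 8.2% for Cyp4a31 and 20.1% for Cyp4a32. Cyp4a14 and the 3 Cyp4f genes shared 0% of such windows with any other gene. The reads behind shared windows could have been split between copies or left out, since the counting rule is not given in the sources used here. Splitting of this kind mainly concerns the pair Cyp4a12a and Cyp4a12b and the trio Cyp4a10, Cyp4a31 and Cyp4a32. Cyp4v3 shared 5.8% of its 100-base windows with the gene Gm45753. Of 50-base windows the share was 48.9% for Cyp4a12a, 49.4% for Cyp4a12b, 30.5% for Cyp4a10, 21.8% for Cyp4a31 and 46.8% for Cyp4a32. It was 7.0% for Cyp4v3, 0.2% for Cyp4a14 and 2.5% to 2.7% for the Cyp4f genes.

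The 60 coding bases around the haem-binding cysteine show which copies a short read cannot separate there. They are spliced from exons 11 and 12 (GENCODE vM21, build GRCm38), are given 5′ to 3′ on the coding strand, and capitals in Cyp4a14 mark its 8 differences from Cyp4a10. Cyp4a31 and Cyp4a32 had the same letters as Cyp4a10, and Cyp4a12b the same as Cyp4a12a. The exons lie within chr4:115529494-115532565 for Cyp4a10, chr4:115487277-115489813 for Cyp4a14 and chr4:115328978-115331868 for Cyp4a12a.
Cyp4a10: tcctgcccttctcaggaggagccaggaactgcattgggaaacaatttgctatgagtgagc
Cyp4a14: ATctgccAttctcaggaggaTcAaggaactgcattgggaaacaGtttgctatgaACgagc
Cyp4a12a: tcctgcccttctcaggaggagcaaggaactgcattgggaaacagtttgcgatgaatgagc

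The copies can be told apart in other exons. The next 3 sequences are 60 bases of exon 2 from the trio, chosen as the stretch within 1 exon with the most differences, and capitals mark the 9 positions at which the copies are not all alike. They lie at chr4:115519640-115519699, chr4:115565020-115565079 and chr4:115602270-115602329 on the plus strand. Most of the capitals set Cyp4a32 apart from the others, and Cyp4a10 and Cyp4a31 differ at few of them, the last base included.
Cyp4a10: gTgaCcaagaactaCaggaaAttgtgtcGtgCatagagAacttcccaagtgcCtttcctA
Cyp4a31: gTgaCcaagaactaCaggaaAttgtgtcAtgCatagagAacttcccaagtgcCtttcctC
Cyp4a32: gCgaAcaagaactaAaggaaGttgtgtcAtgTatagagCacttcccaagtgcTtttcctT

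For the pair, the corresponding stretch was in exon 6, with 4 differing positions in capitals (chr4:115326628-115326687 and chr4:115432881-115432940, plus strand).
Cyp4a12a: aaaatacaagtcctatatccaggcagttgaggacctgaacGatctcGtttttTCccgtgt
Cyp4a12b: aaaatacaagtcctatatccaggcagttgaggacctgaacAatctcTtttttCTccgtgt

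Library depth ran from 12969929 to 22882531 counts. The members spanned a wide range of depth, with the lowest count being 12 reads of Cyp4a14 in mA3 tumour 1 and the highest 45936 reads of Cyp4a14 in vector adjacent 9. Levels below are CPM values, that is read counts divided by a TMM-scaled library total, which compare libraries but not genes. On the first principal component over all genes (50.7% of the variance) vector tumour 1 stood at 31.8, against -102 to -60.7 for the other 3 tumours and 42.5 to 61.2 for the 4 adjacent libraries. Apobec3 had 10.6 and 15.3 CPM in the libraries labelled mA3 tumour and 7.85 and 15.2 CPM in those labelled vector tumour, and 45 and 35.1 CPM in mA3 adjacent against 2.71 and 9.96 CPM in vector adjacent libraries. The gene thus separated the plasmids in adjacent liver but not in tumour, so the plasmid groups of tumours rest on their labels.

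Across both plasmids, 9 of the 10 members were lower in tumour than in adjacent liver and 1, Cyp4a31, was higher. The median log2 difference over the members was -1.61, against 0.01 over all 15009 genes tested. A gene is described as called, or as passing, when its p in edgeR's quasi-likelihood test, adjusted over all tested genes by Benjamini and Hochberg, was under 0.05. By that rule 0 of the 10 members were called, where 4.64% of all genes were. At an unadjusted p under 0.05 the count was 9 of 10 members (8 lower and 1 higher), against 22.4% of all genes. DESeq2 called 9 of 10 members, beside 1940 of 15009 genes, and limma-voom called 1, beside 458 genes. With the mouse as a block edgeR called 3 members, beside 651 genes. Leaving out vector adjacent 1 gave 1 called member, beside 240 of 15628 genes. The count was 6 when vector tumour 1 was left out, beside 1622 of 15675 genes. It was also 6 without vector tumour 1 and vector adjacent 9 together, beside 2790 of 15671 genes; that setting was chosen after seeing the data and leaves out libraries in which members overlapped the other tissue. Without any filter on low counts it was 9, beside 2450 of 23237 genes. In bulk liver, fewer cells of a type and less RNA per cell cannot be told apart.

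Cyp4a10 and Cyp4a14, the ω-hydroxylases best known as PPARα targets, had the widest range of all members. Cyp4a10 had 1.08 and 6.92 CPM in mA3 tumours and 123 and 235 CPM in vector tumours, against 42.8 and 80.8 CPM in mA3 adjacent and 154 and 2690 CPM in vector adjacent libraries. Cyp4a14 had 0.590 and 6.26 CPM in mA3 tumours and 48.5 and 201 CPM in vector tumours, against 26.1 and 79.7 CPM in mA3 adjacent and 119 and 3603 CPM in vector adjacent libraries. For both genes the mA3 tumours were the lowest and vector adjacent 9 the highest of the 8 libraries, and the vector tumours overlapped the adjacent range.

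Within each mouse the tumour was lower than its own adjacent liver in 4 of 4 mice for both genes. The difference in Cyp4a10 was -5.17 and -3.53 log2 units in mA3 mice 1 and 2, and -0.33 and -3.52 in vector mice 1 and 9. In Cyp4a14 it was -5.23 and -3.65 in mA3 mice 1 and 2, and -1.30 and -4.17 in vector mice 1 and 9. The mouse with the smallest difference was vector mouse 1 for both. In the fit over all libraries, edgeR gave -3.46 ± 0.92 (SE) for Cyp4a10 (adjusted p = 0.0731) and -3.92 ± 1.15 for Cyp4a14 (adjusted p = 0.0929), neither past the threshold. Without vector adjacent 9 the values were -1.87 and -1.94, and without vector adjacent 1 Cyp4a10 passed (adjusted p = 0.0447). With the mouse as a block edgeR called Cyp4a14 lower (-3.63 ± 0.69, adjusted p = 0.0365).

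Cyp4a12a and its copy Cyp4a12b, the male-predominant pair, were set apart by a single tumour. Cyp4a12a had 2.56 and 15.4 CPM in mA3 tumours and 212 and 30.7 CPM in vector tumours, against 483 and 218 CPM in mA3 adjacent and 198 and 271 CPM in vector adjacent libraries. Cyp4a12b followed with 0.787 and 6.09 CPM in mA3 tumours and 66.4 and 9.01 CPM in vector tumours, against 199 and 81.3 CPM in mA3 adjacent and 61.3 and 159 CPM in vector adjacent libraries. For both genes 3 tumours lay below every adjacent library, while vector tumour 1 lay inside the adjacent range.

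The difference between tumour and adjacent liver was -3.12 ± 0.75 log2 units for Cyp4a12a (adjusted p = 0.0559) and -3.44 ± 0.82 for Cyp4a12b (adjusted p = 0.0562) in edgeR. With the counts of the pair summed it was -3.21 ± 0.77 (adjusted p = 0.0570), so the value did not turn on how reads were divided between them. Within mice, vector mouse 1 showed 0.09 for Cyp4a12a and 0.11 for Cyp4a12b, while the other 3 mice ran from -7.50 to -3.14 and from -7.80 to -3.71. Without vector tumour 1 edgeR called both lower, and over all settings that left out 1 library the adjusted p ran from 0.0191 to 0.159 for Cyp4a12a and from 0.0254 to 0.158 for Cyp4a12b. Among the members, Cyp4a12a was the only one that limma-voom called (-3.57 ± 0.74, adjusted p = 0.0481).

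Cyp4a31 was the member that stood higher in tumour. It had 44.9 and 55.9 CPM in mA3 tumours and 5.04 and 204 CPM in vector tumours, against 2.66 and 2.06 CPM in mA3 adjacent and 3.31 and 37.3 CPM in vector adjacent libraries. Tumour was higher than adjacent liver in 4 of 4 mice, by 4.02 and 4.69 log2 units in mA3 mice 1 and 2 and by 0.59 and 2.45 in vector mice 1 and 9. The groups overlapped through vector tumour 1 and vector adjacent 9, and edgeR gave 3.39 ± 1.08 (adjusted p = 0.112). With 1 library left out the value ran from 1.20, without vector tumour 9 (adjusted p = 0.427), to 4.69, without vector adjacent 9 (adjusted p = 0.0735), and it passed only without vector tumour 1 (adjusted p = 0.0196).

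Cyp4a32, the copy next to Cyp4a31, went the other way. It had 4.72 and 7.33 CPM in mA3 tumours and 22.2 and 22.5 CPM in vector tumours, against 19.7 and 13.6 CPM in mA3 adjacent and 28.5 and 53.3 CPM in vector adjacent libraries. The mA3 tumours were the lowest libraries and the vector tumours lay among the adjacent ones. It was lower in 4 of 4 mice, and edgeR gave -1.17 ± 0.28 log2 units (adjusted p = 0.0554). When the counts of Cyp4a10, Cyp4a31 and Cyp4a32 were summed the difference was -1.35 ± 0.73 (adjusted p = 0.32), since the opposite directions of Cyp4a10 and Cyp4a31 then entered 1 sum.

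**Figure D1:**
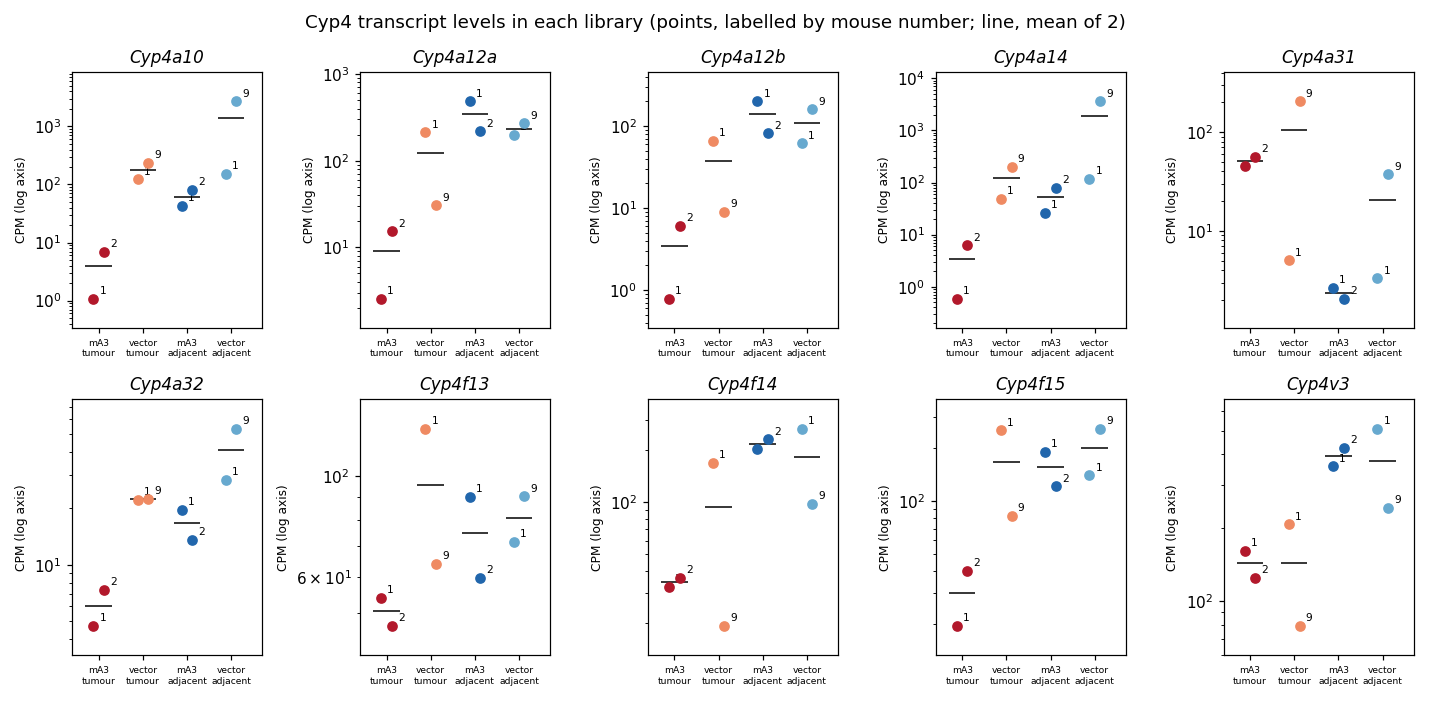
Level of each Cyp4 gene in CPM (log axis, a scale of its own per gene) in the 8 libraries, as points numbered by mouse, with the mean of the 2 libraries of each group as a line. Cyp4a31 runs against the others, with 44.9 and 55.9 CPM in mA3 tumours against 2.66 and 2.06 CPM in mA3 adjacent liver, and the numbered points show vector tumour 1 among the adjacent libraries for Cyp4a12a and Cyp4f14.

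Of the Cyp4f genes, Cyp4f14 and Cyp4f15 had lower mean levels in tumour and Cyp4f13 differed little. Cyp4f14, a mouse counterpart of the human vitamin E and leukotriene hydroxylases, had 32.5 and 36.5 CPM in mA3 tumours and 169 and 19.3 CPM in vector tumours, against 204 and 231 CPM in mA3 adjacent and 266 and 97.6 CPM in vector adjacent libraries. Tumours other than vector tumour 1 lay below every adjacent library. The difference was -1.80 ± 0.62 log2 units (edgeR adjusted p = 0.135); with the mouse as a block it was -2.10 ± 0.40 and passed (adjusted p = 0.0374). Within mice it was -2.64 and -2.66 in mA3 mice and -0.65 and -2.33 in vector mice 1 and 9.

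Cyp4f15 had 19.6 and 40.4 CPM in mA3 tumours and 253 and 82.6 CPM in vector tumours, against 192 and 122 CPM in mA3 adjacent and 141 and 259 CPM in vector adjacent libraries. The tumours again lay below the adjacent range except for vector tumour 1, and edgeR gave -1.32 ± 0.44 log2 units (adjusted p = 0.123). Cyp4f13 had 53.9 and 46.8 CPM in mA3 tumours and 127 and 64.0 CPM in vector tumours, against 89.9 and 59.7 CPM in mA3 adjacent and 71.6 and 90.1 CPM in vector adjacent libraries. The 4 tumours overlapped the 4 adjacent libraries, with a difference of -0.17 ± 0.28 (adjusted p = 0.775), the smallest among the members.

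Cyp4v3 is the mouse counterpart of human CYP4V2, an ω-hydroxylase of polyunsaturated fatty acids whose loss causes a crystalline retinal disease. It had 161 and 125 CPM in mA3 tumours and 207 and 79.2 CPM in vector tumours, against 358 and 427 CPM in mA3 adjacent and 510 and 241 CPM in vector adjacent libraries. It was the 1 member whose tumours all lay below all adjacent libraries, as did 5.32% of all genes. The difference was -1.42 ± 0.39 log2 units (edgeR adjusted p = 0.0774), and -1.45 ± 0.26 with the mouse as a block, which passed (adjusted p = 0.0324). In the 4 mice it ran from -1.77 to -1.15. The deposited interval of Cyp4v3 runs beyond the GENCODE gene (chr8:45304944-45333216) and over Klkb1, a gene of the same strand abundant in liver that had only 10 to 190 counts of its own. Because of this overlap an unknown part of the count may be Klkb1, and the values are uncertain as those of Cyp4v3. The length behind the deposited values was 6559 bases, against 3808 bases for the GENCODE transcript. Cyp4f13, which had no such overlap, also had a longer length than its transcript (4830 against 1752 bases).

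**Figure D2:**
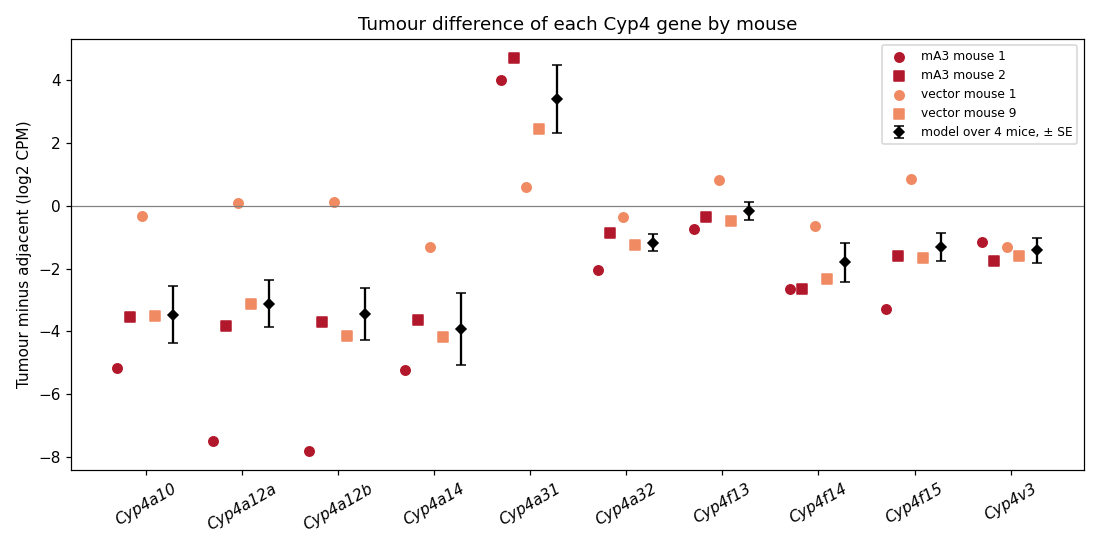
Tumour minus adjacent difference in log2 CPM for each Cyp4 gene, with a point for each of the 4 mice and, as black diamonds with bars of 1 SE, the edgeR estimate over all 8 libraries. Points for vector mouse 1 lie nearest 0 or above it for most genes (0.09 for Cyp4a12a), while Cyp4v3 shows the narrowest spread between mice (-1.77 to -1.15).

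Counted by mouse, 5 of 10 members were lower in the tumour of all 4 mice (Cyp4a10, Cyp4a14, Cyp4a32, Cyp4f14 and Cyp4v3), against 14.8% of all genes. In the opposite direction it was 1 of 10 members, Cyp4a31, against 15.8% of all genes.

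Within mA3 mice every member separated tumour from adjacent liver: 9 of 10 were lower in both tumours than in both adjacent libraries, as were 28.3% of all genes, and Cyp4a31 was higher. Cyp4a12b (-5.34 ± 1.28, adjusted p = 0.0740) and Cyp4a12a (-5.29 ± 1.17, adjusted p = 0.0664) had the largest differences in log2 units. Among the lower members Cyp4a10 and Cyp4a14 followed with -3.94 ± 1.33 (adjusted p = 0.153) and -3.94 ± 1.64 (adjusted p = 0.231), and Cyp4a31 stood at 4.41 ± 1.61 (adjusted p = 0.178). The others were Cyp4f14 with -2.65 ± 0.90, Cyp4f15 with -2.39 ± 0.64, Cyp4a32 with -1.46 ± 0.40, Cyp4v3 with -1.45 ± 0.55 and Cyp4f13 with -0.57 ± 0.40, at adjusted p from 0.0946 to 0.491. In edgeR 0 members passed, where 1.19% of all genes did. At an unadjusted p under 0.05 there were 9 members, against 3002 of 15009 genes. DESeq2 called 5 (both Cyp4a12 genes, Cyp4a32, Cyp4f14 and Cyp4f15), beside 1607 of 15009 genes, and limma-voom 0, beside 111 genes. With no filter on low counts edgeR called 9, beside 2063 of 23237 genes. Leaving out a vector tumour also moved the calls, although such a library enters here only through the shared spread, the filter and the scaling. The fit with the mouse as a block called 560 of 15009 genes. With the mouse as a block edgeR called Cyp4f14 (-2.65 ± 0.49, adjusted p = 0.0429), Cyp4a14 (-4.45 ± 0.87, adjusted p = 0.0487) and Cyp4a31 (4.40 ± 0.56, adjusted p = 0.0227).

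Within vector mice 8 of 10 members were lower in tumour on average and 2, Cyp4a31 and Cyp4f13, were higher. Here 2 of 10, Cyp4a32 and Cyp4v3, were lower without overlap, against 16.5% of all genes. The largest differences were -3.90 ± 1.62 log2 units for Cyp4a14 and -2.99 ± 1.26 for Cyp4a10, and both rested on vector adjacent 9: without it they were 0.05 and 0.20. Cyp4a31 had 2.37 ± 1.44, and -2.01 without vector tumour 9. Cyp4a12b had -1.55 ± 1.08, Cyp4v3 -1.39 ± 0.55, Cyp4a12a -0.95 ± 0.98, Cyp4f14 -0.95 ± 0.85, Cyp4a32 -0.87 ± 0.39, Cyp4f15 -0.26 ± 0.61 and Cyp4f13 0.24 ± 0.40. Without vector tumour 1 these were -3.61 for Cyp4a12b, -2.25 for Cyp4v3, -2.94 for Cyp4a12a, -3.24 for Cyp4f14, -0.86 for Cyp4a32, -1.28 for Cyp4f15 and -0.34 for Cyp4f13, and still did not pass. Without vector tumour 9 they were -0.74 for Cyp4a12b, -0.87 for Cyp4v3, -0.16 for Cyp4a12a, -0.12 for Cyp4f14 and 0.33 for Cyp4f15. In edgeR 0 members passed (adjusted p from 0.523 to 0.881), where 0% of all genes did. At an unadjusted p under 0.05 there were 3, against 9.31% of all genes; DESeq2 and limma-voom called 0, beside 232 and 0 genes, and edgeR with no filter called 4, beside 674 of 23237 genes.

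The question behind the plasmids is the effect of APOBEC3B on liver cancer, as the series title puts it. In tumours, 7 of 10 members were lower in both mA3 libraries than in both vector libraries, against 27.4% of all genes. Cyp4a10 averaged 4 ± 4.13 CPM in mA3 tumours and 179 ± 79.2 CPM in vector tumours (SD, n = 2 each), a difference of -5.48 ± 1.42 log2 units (edgeR adjusted p = 0.295). Cyp4a14 averaged 3.42 ± 4.01 CPM in mA3 tumours and 125 ± 108 CPM in vector tumours, or -5.17 ± 1.73 (adjusted p = 0.312). Cyp4a32 had the smallest adjusted p, 0.268, with 6.03 ± 1.85 CPM in mA3 tumours and 22.4 ± 0.252 CPM in vector tumours, or -1.89 ± 0.40.

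The Cyp4a12 pair and the Cyp4f genes were also lower on average in mA3 tumours. Cyp4a12a differed by -3.75 ± 1.09 log2 units, Cyp4a12b by -3.44 ± 1.18, Cyp4f15 by -2.48 ± 0.64, Cyp4f14 by -1.45 ± 0.87 and Cyp4f13 by -0.92 ± 0.40. Without vector tumour 1 these were -1.77 for Cyp4a12a, -1.38 for Cyp4a12b, -1.46 for Cyp4f15 and -0.35 for Cyp4f13. Cyp4f14 overlapped between the plasmids, and without that library it was 0.84. Cyp4a31 had -1.06 ± 1.38, and 3.32 without vector tumour 9, whose 204 CPM was the highest of the 8. Cyp4v3 averaged 143 ± 25.5 CPM in mA3 tumours and 143 ± 90.5 CPM in vector tumours, a difference of 0.00 ± 0.54, and 0.85 without vector tumour 1.

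Of the tumour comparison between plasmids, 0 members passed in edgeR (adjusted p from 0.268 to 1), as did 0% of all genes. At an unadjusted p under 0.05 there were 7 members, against 14.2% of all genes. DESeq2 called 5 members lower (Cyp4a10, both Cyp4a12 genes, Cyp4a32 and Cyp4f15), beside 507 of 15009 genes, and limma-voom called 0. With no filter on low counts edgeR called 7, beside 1084 of 23237 genes. Without both libraries of vector mouse 9 the difference of Cyp4a31 in edgeR was 3.32 log2 units, that is higher in mA3 tumours. In the fit over all libraries it was -1.06, the opposite direction.

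In adjacent liver 4 members had lower mean levels in mA3 than in vector mice by over 1 log2 unit, and none passed. Cyp4a14 averaged 52.9 ± 37.9 CPM in mA3 and 1861 ± 2463 CPM in vector adjacent liver (SD, n = 2 each), or -5.14 ± 1.72 log2 units. Cyp4a10 averaged 61.8 ± 26.9 CPM in mA3 and 1422 ± 1793 CPM in vector adjacent liver, or -4.52 ± 1.35. Cyp4a31 had -3.09 ± 1.53 and Cyp4a32 -1.30 ± 0.39. These 4 were lower without overlap, against 9.87% of all genes, but without vector adjacent 9 the differences were -1.18 for Cyp4a14, -1.33 for Cyp4a10, -0.49 for Cyp4a31 and -0.78 for Cyp4a32.

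The other 6 members had smaller estimated differences between plasmids in adjacent liver. Their SEs ran from 0.40 to 1.05 log2 units, too wide to show that the plasmids were alike. Cyp4a12a differed by 0.58 ± 0.97 log2 units, Cyp4a12b by 0.35 ± 1.05, Cyp4f14 by 0.26 ± 0.85, Cyp4v3 by 0.06 ± 0.54, Cyp4f13 by -0.11 ± 0.40 and Cyp4f15 by -0.35 ± 0.61. In edgeR 0 members passed (adjusted p = 1 for each), as did 0% of all genes. At an unadjusted p under 0.05 there were 3 members (Cyp4a10, Cyp4a14 and Cyp4a32), against 1.03% of all genes; DESeq2 and limma-voom called 0 members and 0 genes, and edgeR with no filter called 3, beside 56 of 23237 genes.

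Cyp4a10 and Cyp4a32 were below in all 4 mA3 libraries relative to all 4 vector libraries, tumour and adjacent together, as were 146 of 15009 genes, or 0.973%. Cyp4a10 reached at most 80.8 CPM in mA3 libraries and at least 123 CPM in vector libraries. Cyp4a32 reached at most 19.7 CPM in mA3 libraries and at least 22.2 CPM in vector libraries. Libraries of 1 mouse are not independent, and each plasmid had 2 mice.

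**Figure D3:**
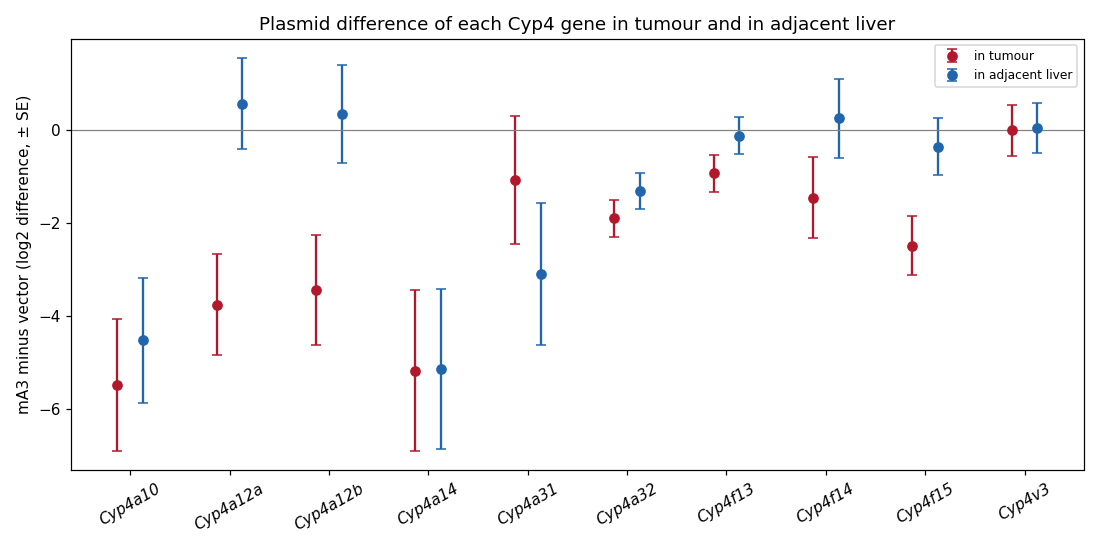
Difference between mA3 and vector mice in log2 units for each Cyp4 gene, in tumour and in adjacent liver, with bars of 1 SE from edgeR. Cyp4a10 and Cyp4a14 lie far below 0 in both tissues (-5.48 and -5.17 in tumour, -4.52 and -5.14 in adjacent liver), while the Cyp4a12 pair lies below 0 in tumour and near 0 in adjacent liver.

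An interaction term set the tumour difference of mA3 mice against that of vector mice, as mA3 minus vector. It was -4.33 ± 1.44 log2 units for Cyp4a12a (edgeR adjusted p = 0.842), -3.79 ± 1.56 for Cyp4a12b (adjusted p = 0.842) and -2.13 ± 0.87 for Cyp4f15 (adjusted p = 0.842). Without vector tumour 1 these were -2.35, -1.72 and -1.11. For Cyp4a14 it was -0.04 ± 1.93 and for Cyp4v3 -0.06 ± 0.76, intervals too wide to show that the plasmids acted alike. The others were Cyp4a31 with 2.03 ± 2.00, Cyp4f14 with -1.70 ± 1.21, Cyp4a10 with -0.95 ± 1.67, Cyp4f13 with -0.81 ± 0.56 and Cyp4a32 with -0.59 ± 0.55. In edgeR 0 of 10 members passed, where 0% of all genes did. At an unadjusted p under 0.05 there were 3, against 4.99% of all genes; DESeq2, limma-voom and the fit with the mouse as a block called 0, and edgeR with no filter called 2, beside 316 of 23237 genes.

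The makeup of the Cyp4a transcripts was compared per length, on the deposited FPKM scale. Summed over the 6 genes it was 15 and 31.7 FPKM in mA3 tumours and 182 and 228 FPKM in vector tumours, against 331 and 191 FPKM in mA3 adjacent and 199 and 2372 FPKM in vector adjacent libraries. Cyp4a31 led in both mA3 tumours, with 69.0% and 41.9% of the sum, and Cyp4a12a led in both mA3 adjacent libraries, with 62.7% and 47.9%. Cyp4a31 held 0.188% and 0.247% in mA3 adjacent liver.

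The vector libraries differed among themselves. Cyp4a12a led in vector tumour 1 with 46.4% and in vector adjacent 1 with 37.3%. Cyp4a10 led in vector tumour 9 with 36.2% and Cyp4a14 in vector adjacent 9 with 52.1%. Cyp4a10 and Cyp4a14 together held 67% in vector tumour 9 and 91.1% in vector adjacent 9. The ratio of Cyp4a12a to Cyp4a12b stayed between 1.68 and 3.37 over the 8 libraries, although Cyp4a12a itself ran from 1.08 to 207 FPKM. The length behind the FPKM of Cyp4a31 was 4436 bases, against 2509 bases for its GENCODE transcript, and its FPKM depends on that length.

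**Figure D4:**
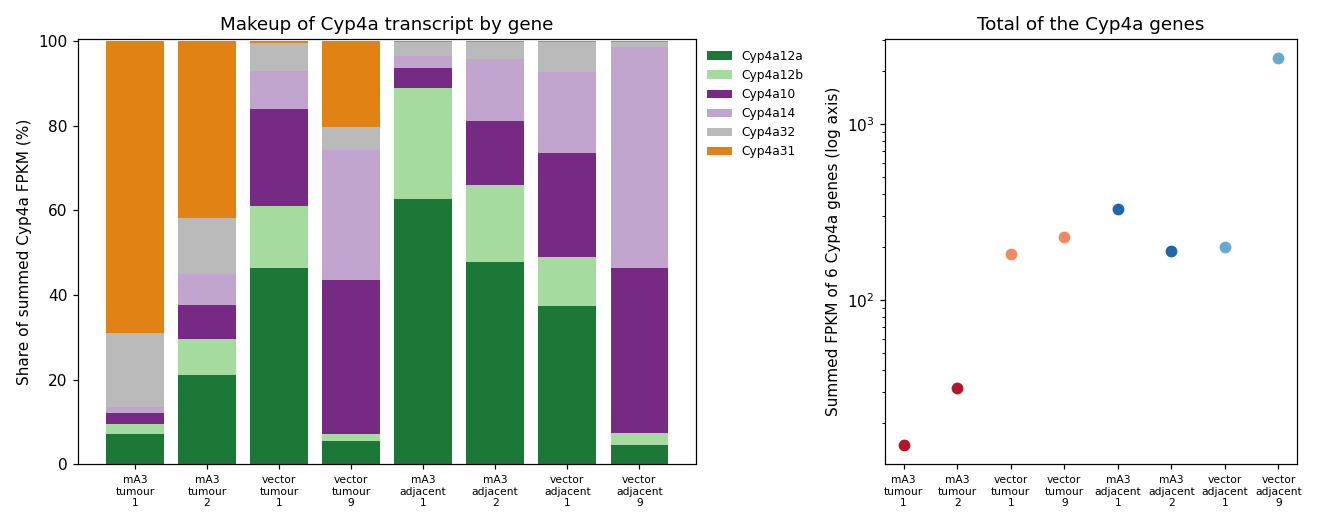
Left, share of the summed Cyp4a FPKM (%) held by each of the 6 genes in each library; right, the sum itself in FPKM (log axis). Cyp4a31 makes up 69.0% and 41.9% of a small sum in the mA3 tumours, and Cyp4a10 with Cyp4a14 makes up 91.1% of the largest sum, 2372 FPKM in vector adjacent 9.

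Per length and by the median of the 8 libraries, Cyp4a12a was highest with 79.5 FPKM, followed by Cyp4f14 with 49.8, Cyp4f15 with 41.7, Cyp4a10 with 35.2, Cyp4v3 with 33.4, Cyp4a12b with 25.0 and Cyp4a14 with 22.3 FPKM. Cyp4f13 with 13.4, Cyp4a32 with 11.4 and Cyp4a31 with 4.69 FPKM were the lowest. The order depends on the lengths behind the FPKM values, which for several members exceeded the GENCODE transcript used here. For Cyp4f13 the length was 4830 bases, against 1752 bases for that transcript, so its place among the lowest depends on that length. The ranges of neighbours in this order overlapped throughout.

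The next steps of the pathway were read from lists of genes in the pooled comparison of tumour with adjacent liver, where 442 of 15009 genes were called higher and 254 lower by edgeR. Of 10 tested partners of ω-oxidation (alcohol and aldehyde dehydrogenases among them), 0 rose and 2 fell, with a median log2 difference of -0.97. Aldh1a1, a retinal and aldehyde dehydrogenase, fell by 2.41 ± 0.46 (adjusted p = 0.0345), and Aldh3a2, the fatty aldehyde dehydrogenase, fell by 1.63 ± 0.34 (adjusted p = 0.0403). Adh4 (-2.23 ± 0.57, adjusted p = 0.0662) and Adh5 (-1.08 ± 0.29, adjusted p = 0.0764) did not pass.

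Of 21 tested genes of peroxisomal dicarboxylic acid oxidation, 0 rose and 7 fell, with a median of -1.01. Crot, which moves medium-chain acyl groups out of peroxisomes as carnitine esters, had 93.1 and 148 CPM in mA3 tumours and 227 and 286 CPM in vector tumours, against 355 and 454 CPM in mA3 adjacent and 615 and 726 CPM in vector adjacent libraries. All tumours lay below all adjacent libraries (-1.57 ± 0.27, edgeR adjusted p = 0.0258). The thioesterase genes Acot3 (-2.95 ± 0.52, adjusted p = 0.0262) and Acot4 (-1.23 ± 0.23, adjusted p = 0.0331) and the sterol carrier gene Scp2 (-1.75 ± 0.31, adjusted p = 0.0272) also fell.

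Of 33 tested genes on the list of PPARα and its targets, 0 rose and 6 fell, with a median of -0.83. The lipid droplet gene Plin5 fell by 1.95 ± 0.33 (edgeR adjusted p = 0.0244) and the acyl-CoA thioesterase Acot1 fell by 2.86 ± 0.55 (adjusted p = 0.0339), beside Acot3 and Acot4 above, which are on both lists. Ppara itself had 40.4 and 63.2 CPM in mA3 tumours and 51.9 and 44.3 CPM in vector tumours, against 48.5 and 113 CPM in mA3 adjacent and 147 and 56.2 CPM in vector adjacent libraries. Its groups overlapped (-0.86 ± 0.39, adjusted p = 0.24).

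Vector adjacent 9, in which Cyp4a10 and Cyp4a14 peaked, was the highest of the 8 libraries for 16 of the 33 listed genes (48.5%), against 10.8% of all genes. It was likewise the highest for 9 of 21 peroxisomal genes (42.9%), some of them on both lists, 8 of 16 female-biased genes and 2 of 4 other Cyp4 genes. For the remaining lists it was 2 of 10 partners of ω-oxidation, 1 of 14 leukotriene and epoxide genes, 1 of 20 male-biased genes and 1 of 10 growth hormone genes. The cause of the peak was not tested. Acot1 had 130 CPM there, against 10.8 to 20 CPM in the other adjacent libraries, and Plin5 had 108 CPM against 22.1 to 39.6 CPM. Ppara had 56.2 CPM in that library, inside its range elsewhere.

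Of 4 tested genes among the other Cyp4 genes listed, 1 rose and 0 fell. Cyp4f16, a further Cyp4f gene, had 16.3 and 17.1 CPM in mA3 tumours and 4.87 and 9.56 CPM in vector tumours, against 2.74 and 1.85 CPM in mA3 adjacent and 2.31 and 4.31 CPM in vector adjacent libraries. All tumours lay above all adjacent libraries (1.99 ± 0.34, edgeR adjusted p = 0.0249). Cyp4f17 (-0.53 ± 0.53), Cyp4b1 (0.25 ± 0.26) and Cyp4f18 (0.12 ± 0.50) did not pass, at adjusted p from 0.6 to 0.919.

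Of 14 tested genes of leukotriene and epoxide metabolism, 1 rose and 2 fell, with a median of -0.43. Alox5, which makes the precursor of the leukotrienes, had 60 and 18.6 CPM in mA3 tumours and 0.631 and 24.5 CPM in vector tumours, against 0.784 and 0.480 CPM in mA3 adjacent and 0.201 and 0.549 CPM in vector adjacent libraries. Vector tumour 1 lay within the adjacent range and the other tumours far above it (5.52 ± 1.08, edgeR adjusted p = 0.0358). The soluble epoxide hydrolase gene Ephx2 fell by 1.95 ± 0.33 (adjusted p = 0.0249) and the epoxygenase gene Cyp2j5 fell by 2.78 ± 0.58 (adjusted p = 0.0406), while Ptgr1 did not pass (1.36 ± 0.44, adjusted p = 0.119).

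Of 20 tested male-biased liver genes, 1 rose and 5 fell, with a median of -2.11. The urinary protein gene Mup11 fell by 3.48 ± 0.56 (edgeR adjusted p = 0.0233), the fatty acid elongase gene Elovl3 fell by 3.99 ± 0.68 (adjusted p = 0.0249), Moxd1 fell by 5.33 ± 0.97 (adjusted p = 0.0286) and the glucuronosyltransferase gene Ugt2b1 fell by 2.62 ± 0.53 (adjusted p = 0.0385). Mup genes are near-identical copies, so the value of Mup11 is uncertain. Of 16 tested female-biased genes, 9 lay above 0 and 7 below, with a median of 0.55. By edgeR 4 of them rose and 0 fell: Prom1 (3.69 ± 0.30, adjusted p = 0.0129), Cyp2a4 (3.51 ± 0.40, adjusted p = 0.0139), Sult2a2 (5.79 ± 1.03, adjusted p = 0.0273) and Cyp2b9 (3.80 ± 0.73, adjusted p = 0.0345). Of 10 tested genes of growth hormone signalling, 0 rose and 1 fell, with a median of -0.79. That gene was Igf1, the hepatic growth factor induced by growth hormone (-2.45 ± 0.41, adjusted p = 0.0246), while Igfals (-2.04 ± 0.50, adjusted p = 0.0615), the receptor gene Ghr (-1.77 ± 0.58, adjusted p = 0.123) and Socs2 (-0.96 ± 0.44, adjusted p = 0.242) did not pass.

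The genes most like a member were sought by the root mean square difference of centred log2 CPM over the 8 libraries, among genes with a mean of at least 5 CPM. For Cyp4a14 they were Cyp4a10 (0.50 log2 units), Cyp3a41a (1.37), Plin4 (1.46) and Cyp2c38 (1.48), so that only Cyp4a10 came near. For Cyp4a12a they were Cyp4a12b (0.30), Ces3a (0.36), Mup2 (0.36) and Mup13 (0.37). Ces3a, a carboxylesterase gene, had 17.7 and 154 CPM in mA3 tumours and 2191 and 221 CPM in vector tumours, against 2498 and 1328 CPM in mA3 adjacent and 1592 and 1434 CPM in vector adjacent libraries, again with vector tumour 1 inside the adjacent range.

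For Cyp4f14 they were Ghr (0.22), Keg1 (0.23), Ces2a (0.24) and Mcm10 (0.27). Ghr had 70.8 and 127 CPM in mA3 tumours and 433 and 69.4 CPM in vector tumours, against 576 and 611 CPM in mA3 adjacent and 711 and 266 CPM in vector adjacent libraries. For Cyp4v3 they were Srr (0.17), Galm (0.22), Lcp1 (0.23) and Lactb2 (0.23). The 8 points share the 4 mice, and the likeness is a description.

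Markers of liver cell types were read beside these differences. The pericentral hepatocyte markers, genes of the zone around the central vein, summed to 285 and 1113 CPM in mA3 tumours and 7765 and 1583 CPM in vector tumours, against 9326 to 15802 CPM in adjacent libraries. Of 9 tested, 9 were below 0 and 2 fell (edgeR), with a median log2 difference of -2.31. In the tumours that sum had the same order as Cyp4a12a, lowest in mA3 tumour 1 and highest in vector tumour 1. The first principal component over all genes put the tumours in that order too. In adjacent liver the orders differed, with the sum highest in vector adjacent 9 and Cyp4a12a highest in mA3 adjacent 1. Cyp2e1 alone reached 183709 counts in a library, against at most 24709 for any other gene of that list. Hepatocyte markers, Alb among them, summed to 92836 to 208972 CPM in tumours and 42146 to 109779 CPM in adjacent liver, so hepatocyte transcripts were abundant in all libraries. Alb alone reached 3777378 counts in a library, against at most 485353 for any other hepatocyte marker, so their sum mostly follows Alb. Of the 10 hepatocyte markers, 5 were below 0 and 5 above, with a median log2 difference of -0.11, and 1 rose and 1 fell. Periportal hepatocyte markers summed to 2561 to 5033 CPM in tumours and 4652 to 6574 CPM in adjacent liver, and of 10 tested 1 rose and 0 fell.

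Kupffer cell and macrophage markers summed to 92.6 to 192 CPM in tumours and 180 to 472 CPM in adjacent liver, and of 9 tested 0 rose and 3 fell. Bile duct markers summed to 104 to 615 CPM in tumours and 41.8 to 57.1 CPM in adjacent liver, and of 6 tested 1 rose. Spp1 alone reached 12042 counts in a library, against at most 492 for any other gene of that list. Stellate and fibroblast markers summed to 117 to 387 CPM in tumours and 162 to 274 CPM in adjacent liver, endothelial markers to 211 to 343 CPM in tumours and 262 to 311 CPM in adjacent liver, and none of either list passed in edgeR. Neutrophil markers summed to at most 13.3 CPM and lymphocyte markers to at most 18.5 CPM in any library, and none of their tested genes passed. The part of these cell types in the Cyp4 differences was not tested.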

How the data were processed

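RNA was sequenced from 8 mouse liver libraries, 2 in each of 4 groups. Per the file headers, the authors deposited read counts, all whole numbers, and FPKM values (fragments per kilobase, scaled to library size) for 34745 genes. Which aligner, counter and strand rule they used is not given in the sources used here. The submitters' processing notes name build mm8 and Agilent Feature Extraction 10.7, a microarray program; deposited positions instead matched GRCm38 (81.6% of 34267 identifiers found in GENCODE vM21 within 1 bp). For each of the 7555 genes that had 100 or more counts throughout, FPKM and counts implied 1 gene length within 1%.

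The counts were fitted with edgeR 4.0.16 under R 4.3.3 (filterByExpr, TMM, quasi-likelihood F test, 1 coefficient per group; 15009 genes, 4 residual degrees of freedom, biological coefficient of variation 39.1%). The threshold was 0.05 on p adjusted over all of these by Benjamini and Hochberg. SEs were derived from the F statistic. FPKM values were used only for levels per length. Alternatives were DESeq2 1.42.0, limma-voom (limma 3.58.1), other scaling, no filter, the mouse as a block, summed copies, and leaving out libraries or mice. The labels number the mice, so tumour and adjacent libraries pair through the mouse; their deviations from group means correlated at 0.107 (vector) and 0.175 (mA3).

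Library totals ran from 12969929 to 22882531 counts, and with 2 libraries per group precision was set by the spread between libraries. The members, lists, comparisons and naming rule were chosen with earlier results of these data known. All 10 members were described in every comparison. From each pathway list up to 4 tested genes with the smallest p between tumour and adjacent liver were named, and Ppara. For Cyp4a14, Cyp4a12a, Cyp4f14 and Cyp4v3 the 4 genes of most similar pattern (prior count 2) were named. Plin5 and Acot1 in single libraries were named after their values were seen. Sequences were read from GENCODE vM21 transcripts (GRCm38).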

Additional observations from a re-analysis of the deposited data

Results flagged for a closer look

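Among the 4 adjacent libraries, vector adjacent 9 stood far above the other 3 for 3 members. Cyp4a14 had 3603 CPM there, Cyp4a10 had 2690 CPM and Cyp4a31 had 37.3 CPM, and the gap to the next library took up 0.974, 0.958 and 0.965 of the range of the 4, more than Dixon's critical value. Among the 4 tumours, vector tumour 1 stood above the other 3 for 3 members, with 212 CPM of Cyp4a12a, 66.4 CPM of Cyp4a12b and 169 CPM of Cyp4f14, with gaps of 0.866, 0.875 and 0.885 of the range. In all, 20 groups of 4 libraries were tested, on CPM and with both plasmids pooled in each group. Every flagged library was the highest of its group, a direction that CPM favours over a log scale. Chance flags about 1 in 20 only for normally distributed values, a condition not tested here. The number of flags was therefore not compared with chance. The members that share an outlying library are not independent of each other, since Cyp4a12a and Cyp4a12b share sequence, as do Cyp4a10 and Cyp4a31.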

How the results depend on the processing

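Of 1162 values of single members under the alternatives, 966 kept their direction and side of the threshold. Another 134 kept their direction and passed, and 62 changed sign, whether or not they passed. Directions were read on rounded values. Cyp4v3 between plasmids in tumour, at 0.00 in the fit reported, could therefore not count as a change of sign and stands within the 966. With 1 library left out it ran from -0.53 to 0.85. DESeq2 size factors, upper-quartile factors and summing copies called 0 members in all 6 comparisons, like the fit reported; the cause of the other changes was not tested. With no filter on low counts (23237 genes) edgeR called 9 members in tumour against adjacent liver, 9 in mA3 mice, 4 in vector mice, 7 between plasmids in tumour, 3 in adjacent liver and 2 in the interaction. DESeq2 called 9, 5 in mA3 mice and 5 between plasmids in tumour, and limma-voom 1. With the mouse as a replicate block 3 were called in tumour against adjacent liver and 3 in mA3 mice, and no other member's call changed. Without mouse 1 of the vector group the counts were 9 in tumour against adjacent liver, 9 in mA3 mice, 1 in vector mice and 1 between plasmids in adjacent liver; without mouse 9 they were 3 in tumour against adjacent liver, 9 in mA3 mice and 8 between plasmids in tumour. Without vector tumour 1 and vector adjacent 9, a setting chosen after seeing the data, they were 6 in tumour against adjacent liver, 9 in mA3 mice and 3 in vector mice. Leaving out 1 library gave 0 to 6 in tumour against adjacent liver and 0 to 5 in mA3 mice. These counts take both directions together. Without vector mouse 9 the members counted between plasmids in tumour included Cyp4a31, which was higher in mA3 tumours there (3.32 log2 units). Where a setting left a group with 1 library, that library was taken to vary like the others. Over all genes the count called in tumour against adjacent liver was 696, with 0 to 1622 when 1 library was left out and 0 to 2790 otherwise, and in mA3 mice 178, with 0 to 1090 and 0 to 2206. Over all genes 0 were called in vector mice (0 to 142 and 0 to 674), between plasmids in tumour (0 to 270 and 0 to 1748), between plasmids in adjacent liver (0 and 0 to 56) and in the interaction (0 and 0 to 316).

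These log2 differences changed sign. In tumour against adjacent liver, Cyp4f13 was 0.12 without vector mouse 9, and -0.46 to 0.03 with 1 library left out. In vector mice, Cyp4f13 was -0.48 without mouse 1; without mouse 9 Cyp4a12a was 0.08, Cyp4a12b 0.10 and Cyp4f15 0.83; without vector tumour 1 and vector adjacent 9 Cyp4a10 was 0.60, Cyp4a14 0.74 and Cyp4f13 -0.17. With 1 library left out there, Cyp4a10 ran from -3.91 to 0.20, Cyp4a14 from -5.27 to 0.05, Cyp4a31 from -2.01 to 4.97, Cyp4f13 from -0.34 to 0.64 and Cyp4f15 from -1.28 to 0.33. Between plasmids in tumour, Cyp4a31 was 0.63 in limma-voom and 3.32 without vector mouse 9, Cyp4f14 was 0.84 without vector mouse 1 and 0.84 without vector tumour 1 and vector adjacent 9, and with 1 library left out they ran from -2.02 to 3.32 and from -2.28 to 0.84. Between plasmids in adjacent liver, without mA3 mouse 1 Cyp4a12a was -0.13 and Cyp4a12b -0.46; without mA3 mouse 2 Cyp4f13 was 0.14 and Cyp4v3 -0.09; without vector mouse 1 Cyp4a12b was -0.16; without vector mouse 9 Cyp4f13 was 0.06, Cyp4f14 -0.30, Cyp4f15 0.15 and Cyp4v3 -0.39; without vector tumour 1 and vector adjacent 9 they were 0.06, -0.30, 0.15 and -0.38. With 1 library left out, Cyp4a12a ran from -0.13 to 1.04, Cyp4a12b from -0.46 to 1.19, Cyp4f13 from -0.46 to 0.15, Cyp4f14 from -0.30 to 1.15, Cyp4f15 from -0.73 to 0.15 and Cyp4v3 from -0.38 to 0.71. In the interaction, Cyp4a10 was 1.86 with its copies summed; without mA3 mouse 1 Cyp4a14 was 0.24 and Cyp4a32 0.01; without mA3 mouse 2 Cyp4v3 was 0.29; without vector mouse 1 Cyp4a14 was 0.20 and Cyp4v3 0.12; without vector tumour 1 and vector adjacent 9 Cyp4a31 was -1.54, Cyp4f14 1.14 and Cyp4v3 1.24. With 1 library left out, Cyp4a14 ran from -3.99 to 1.33, Cyp4a31 from -0.57 to 6.41, Cyp4f14 from -2.59 to 0.59 and Cyp4v3 from -0.70 to 0.79.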
